A study of Homo sapiens with 8 samples.

Results

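The genes examined stand at the top of insulin and phosphoinositide 3-kinase (PI3K) signalling. They are 10 in number: the receptors INSR and IGF1R, the docking proteins IRS1, IRS2, GAB1 and GAB2, the PI3K subunits PIK3R1 and PIK3CA, and the kinases AKT1 and AKT2. They were measured by the array features to which the platform annotation gives 1 of these symbols, which were 20 of 44290 features and covered 9 of the 10 genes. PIK3CA was not analysed here. RNA came from Caco-2 cells, a human colorectal adenocarcinoma line that forms an epithelium-like monolayer, cultured for 18 days so that they differentiated. The MB452 group had 2 pools (A and B) of monolayers exposed for 10 h to Lactobacillus plantarum MB452 suspended at an optical density of 0.9, and the control group had 2 pools (A and B) given the medium alone, M199 with non-essential amino acids, in which the bacteria had been suspended. Each pool held equal RNA from 3 wells of this single line. Each was put on its own slide, with the pool in Cy5 and a common reference in Cy3, which the protocol describes as RNA of all wells of both groups, although the short name of that channel differs between the groups. Every slide was scanned at a high and a low setting, and each scan is a column of the table.

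Insulin and the insulin-like growth factors bind receptor tyrosine kinases that phosphorylate IRS proteins, and growth factor receptors use GAB proteins in a similar way. The phosphorylated docking proteins recruit PI3K through its regulatory subunit, and the lipid that PI3K makes brings AKT to the membrane. AKT in turn restrains FOXO transcription factors and glycogen synthase kinase, so that the pathway controls growth, survival and glucose use, also in the intestinal epithelium.

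The upstream sequences of the genes with the largest differences, IRS1 and GAB2, and of IRS2, the close relative of IRS1, are shown as context for where their transcripts start. They are the 250 bases before the annotated starts in RefSeq (GRCh38.p14), on the minus strand and written 5′ to 3′. Capitals mark the GC box (GGGCGG) and the EGR motif (GCGTGGGCG or GCGGGGGCG) on either strand, and the motifs overlap in the IRS2 sequence.
IRS1, chr2:226799821-226800070: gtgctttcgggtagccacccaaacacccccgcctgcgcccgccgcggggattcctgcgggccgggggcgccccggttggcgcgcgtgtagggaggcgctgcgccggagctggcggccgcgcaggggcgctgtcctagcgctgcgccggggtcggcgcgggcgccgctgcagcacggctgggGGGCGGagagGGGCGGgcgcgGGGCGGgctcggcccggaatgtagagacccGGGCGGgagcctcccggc
IRS2, chr13:109786584-109786833: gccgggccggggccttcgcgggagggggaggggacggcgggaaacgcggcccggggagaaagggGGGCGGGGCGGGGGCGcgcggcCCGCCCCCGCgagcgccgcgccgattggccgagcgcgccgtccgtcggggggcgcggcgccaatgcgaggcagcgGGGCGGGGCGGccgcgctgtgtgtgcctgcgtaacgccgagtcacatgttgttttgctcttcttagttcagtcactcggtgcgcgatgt
GAB2 start 1, chr11:78417821-78418070: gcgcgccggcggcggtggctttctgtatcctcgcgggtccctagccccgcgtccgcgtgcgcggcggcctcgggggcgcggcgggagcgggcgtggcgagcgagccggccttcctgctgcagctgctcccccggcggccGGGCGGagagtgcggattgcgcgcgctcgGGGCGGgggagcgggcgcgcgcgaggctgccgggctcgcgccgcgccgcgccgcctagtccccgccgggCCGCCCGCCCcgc
GAB2 start 2, chr11:78341920-78342169: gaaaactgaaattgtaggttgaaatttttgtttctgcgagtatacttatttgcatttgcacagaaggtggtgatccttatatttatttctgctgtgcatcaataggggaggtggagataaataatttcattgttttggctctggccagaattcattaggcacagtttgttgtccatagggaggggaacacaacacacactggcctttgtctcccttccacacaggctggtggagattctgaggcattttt
Of the 9 genes, 8 matched the promoter table, with 14 starts. The GC box was found at 11 of the 14 starts and in 42.6% of all 35116 promoters. IRS1 held 4 matches, IRS2 held 5, GAB2 start 1 held 4 and GAB2 start 2 held 0. The EGR motif was found at 1 of the 14 starts, that of IRS2, and in 5.37% of all promoters. The FOXO motif GTAAACA and the CRE motif TGACGTCA, both searched on both strands, were found at 0 of the 14 starts, and in 2.98% and 1.65% of all promoters. The GC content was 80.8% for IRS1, 76.4% for IRS2, 84.0% for GAB2 start 1 and 41.2% for GAB2 start 2. These matches describe letters only.

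IRS1 was the member that passed the study's threshold at the level of genes, a fold change over 1.2 with an unadjusted moderated p under 0.05 in limma, and it was higher in the MB452 pools. GAB2 followed with a fold change just below the minimum. INSR, GAB1 and AKT1 had both MB452 pools above both control pools without passing, and the pools of the groups overlapped for IGF1R, IRS2, PIK3R1 and AKT2. Thus 1 of 9 members (11.1%) passed, against 1.91% of all 17969 genes. IRS1 is in a pathway list of genes that the study called from these same samples, so this share is not independent evidence. By direction, 1.04% of all genes passed as higher and 0.868% as lower in the MB452 pools. In the high scan 2 members passed (IRS1 and GAB2), against 2.74% of all genes, and in the low scan 0 passed, against 2.18%. No gene on the array reached an adjusted p under 0.05 in limma (0 genes, lowest adjusted p 0.176), while 1166 genes had an unadjusted p under 0.05. The members' lowest adjusted p was 0.676. With n = 2 pools in each group these p-values rest on the spread between these pools. The moderated test in limma combines it with the spread over all genes or features, and neither covers further experiments. In bulk RNA a change in the number of cells of a type cannot be told apart from a change in RNA per cell.

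**Figure D1:**
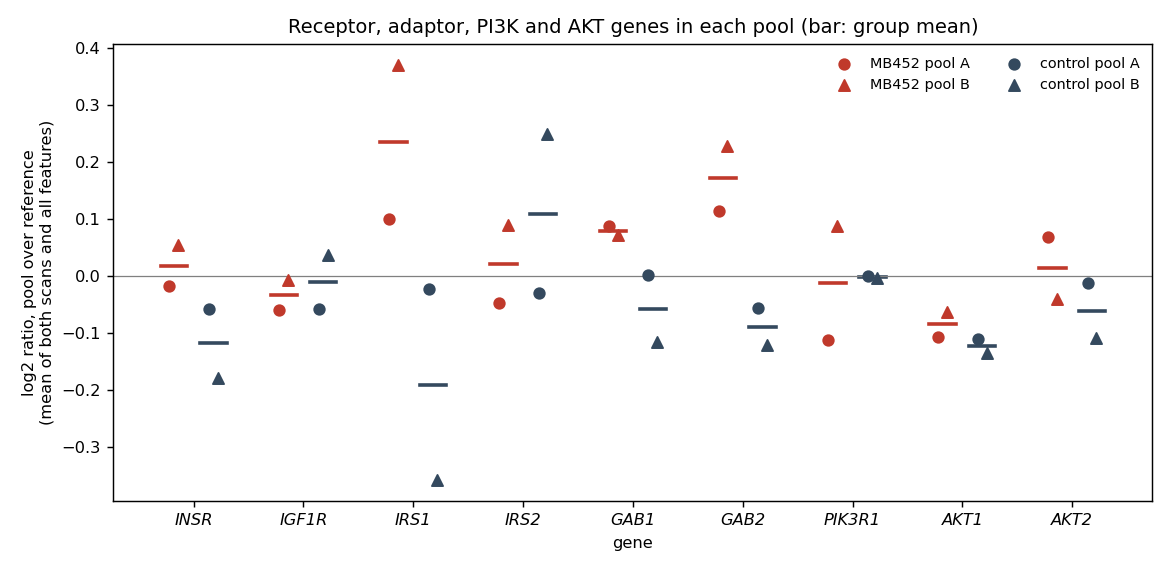
Log2 ratio of sample over reference for each of the 9 genes (mean over features, scans averaged), with 1 point for each pool, MB452 pools left of control pools. Both MB452 pools lie above both control pools for INSR, IRS1, GAB1, GAB2 and AKT1, and the groups overlap for the other 4 genes.

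All values below are log2 ratios of a pool over the reference, which show differences between pools and give no level of a gene in itself. Over the 9 members the median difference between MB452 and control was 0.075, against -0.0093 over all genes, and 6 of the 9 were positive, against 45.4% of all genes. Both MB452 pools lay above both control pools for 5 members and below for 0, against 17.6% and 19.5% of all genes, or 37.1% in either direction.

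The receptors differed little. INSR, the insulin receptor, has 1 feature and had log2 ratios of -0.018 and 0.054 in the MB452 pools, against -0.058 and -0.18 in the control pools. Both MB452 pools were the higher ones, but the difference of 0.14 (SE 0.069, limma adjusted p = 0.805) had a 95% interval of -0.039 to 0.31. It was 0.055 in the high scan, where the pools overlapped, and 0.22 in the low scan, where they did not. IGF1R, the receptor for insulin-like growth factor 1, had ratios of -0.060 and -0.0062 in the MB452 pools, against -0.057 and 0.036 in the control pools. The difference was -0.023 (SE 0.063, limma adjusted p = 0.953), and the interval of -0.18 to 0.14 leaves room for a small difference either way. Its 3 features gave differences of 0.0051, -0.11 and 0.040, with overlapping pools at each.

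IRS1, which links the insulin receptor to PI3K, showed the largest difference of the 9 genes. Its single feature, 37804, had log2 ratios of 0.099 and 0.37 in the MB452 pools, against -0.024 and -0.36 in the control pools. The groups did not overlap, although the pools within each group were far apart. The difference was 0.43 (SE 0.14, 95% interval 0.062 to 0.79), a fold change of 1.34, with an unadjusted p of 0.0296 and an adjusted p of 0.732 in limma. The scans differed. In the high scan the ratios were 0.27 and 0.43 in the MB452 pools, against -0.034 and -0.36 in the control pools. In the low scan they were -0.073 and 0.31 in the MB452 pools, against -0.013 and -0.36 in the control pools, so that MB452 pool A was below control pool A and the groups overlapped. The high scan gave a difference of 0.54 and the low scan 0.31, and this gap of 0.24 was the widest between scans of the 20 features. Without control pool B the IRS1 difference was 0.26, and without MB452 pool B it was 0.29, and in neither case did it pass the threshold.

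IRS2, the other widely expressed insulin receptor substrate, did not pass. Its gene value was -0.047 and 0.089 in the MB452 pools, against -0.030 and 0.25 in the control pools. The groups overlapped, and the difference was -0.088 (SE 0.11, 95% interval -0.37 to 0.19, limma adjusted p = 0.867). Its 3 features disagreed. Feature 11244 had -0.052 and 0.29 in the MB452 pools, against 0.083 and -0.20 in the control pools, a difference of 0.18. Feature 34539 differed by -0.090. Feature 38740 had -0.10 and 0.084 in the MB452 pools, against -0.10 and 0.79 in the control pools. Control pool B stood apart from the other pools at that feature in both scans, with 0.75 in the high and 0.83 in the low scan, and the difference of -0.35 became 0.093 without that pool. Without control pool A it was -0.80 and passed. The range of 0.53 between the 3 features of IRS2 was matched or exceeded by 1.73% of the 1564 genes with 3 features. The difference between IRS1 and IRS2 within a pool was 0.15 and 0.28 in the MB452 pools, against 0.0065 and -0.61 in the control pools. The groups did not overlap, and they differed by 0.51 with all pools and by 0.21 without control pool B. In an exact two-sided permutation test the comparison with all pools gave p = 0.333, the smallest p that 2 pools against 2 allow. Adjusted over the 4 pairs of related genes compared, it was 0.444.

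**Figure D2:**
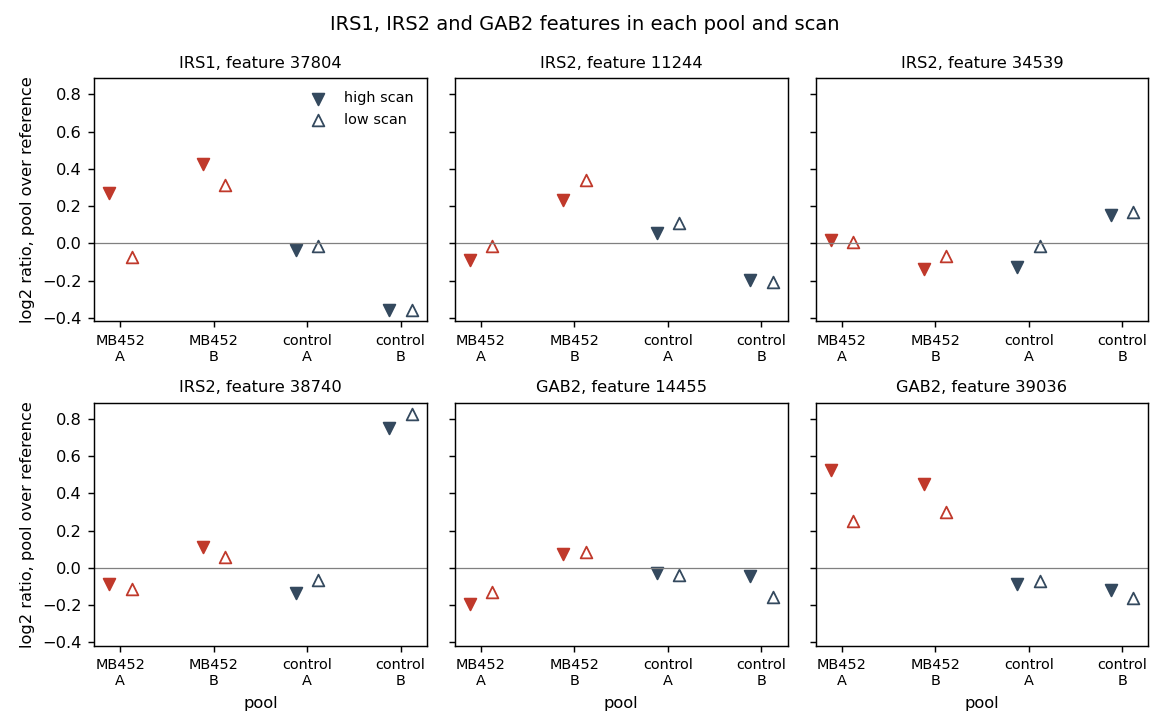
Log2 ratios of the IRS1, IRS2 and GAB2 features in each scan of each pool, MB452 pools left of control pools. GAB2 feature 39036 is separated between the groups in both scans, IRS1 in the high scan only, and control pool B is high at IRS2 feature 38740 in both scans.

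GAB1 and GAB2 are docking proteins that recruit PI3K and the phosphatase SHP2 to growth factor receptors. GAB1 was measured by 4 features, and its gene value was 0.088 and 0.072 in the MB452 pools, against 0.00097 and -0.12 in the control pools. The groups did not overlap in either scan. The difference was 0.14 (SE 0.065, 95% interval -0.027 to 0.30, limma adjusted p = 0.792), and its 4 features gave 0.13, 0.14, 0.095 and 0.18. Feature 22146 passed without control pool A, at 0.29. GAB2 had a gene value of 0.11 and 0.23 in the MB452 pools, against -0.057 and -0.12 in the control pools, again without overlap in either scan. The difference was 0.26 (SE 0.067, 95% interval 0.090 to 0.43), with an unadjusted p of 0.0108 and an adjusted p of 0.676 in limma, and the fold change of 1.197 lay under the minimum of 1.2. The gene passed without control pool A (0.29) and without MB452 pool A (0.32).

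The GAB2 value rested on 1 of its 2 features. Feature 39036 had log2 ratios of 0.39 and 0.38 in the MB452 pools, against -0.080 and -0.14 in the control pools. The pools of a group lay close together and the groups were well apart. The difference was 0.49 (SE 0.062, 95% interval 0.34 to 0.65), a fold change of 1.41, with an unadjusted p of 0.000454 and an adjusted p of 0.853 over all features in limma. The high scan gave 0.59 and the low scan 0.39, without overlap in either, and it passed the threshold with any 1 pool left out. Feature 14455 had -0.16 and 0.082 in the MB452 pools, against -0.034 and -0.10 in the control pools, and these overlapped. Its difference was 0.027 (SE 0.098) and changed sign between scans, with -0.021 in the high and 0.075 in the low scan. Feature 39036 minus feature 14455 was 0.55 and 0.29 in the MB452 pools, against -0.046 and -0.042 in the control pools. The range of 0.47 between the features of GAB2 was matched or exceeded by 1.42% of the 5146 genes with 2 features. Which GAB2 transcripts each feature detects was not analysed here. GAB1 minus GAB2 differed by -0.12 between the groups and INSR minus IGF1R by 0.16, each with p = 0.333 in the exact two-sided permutation test.

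**Figure D3:**
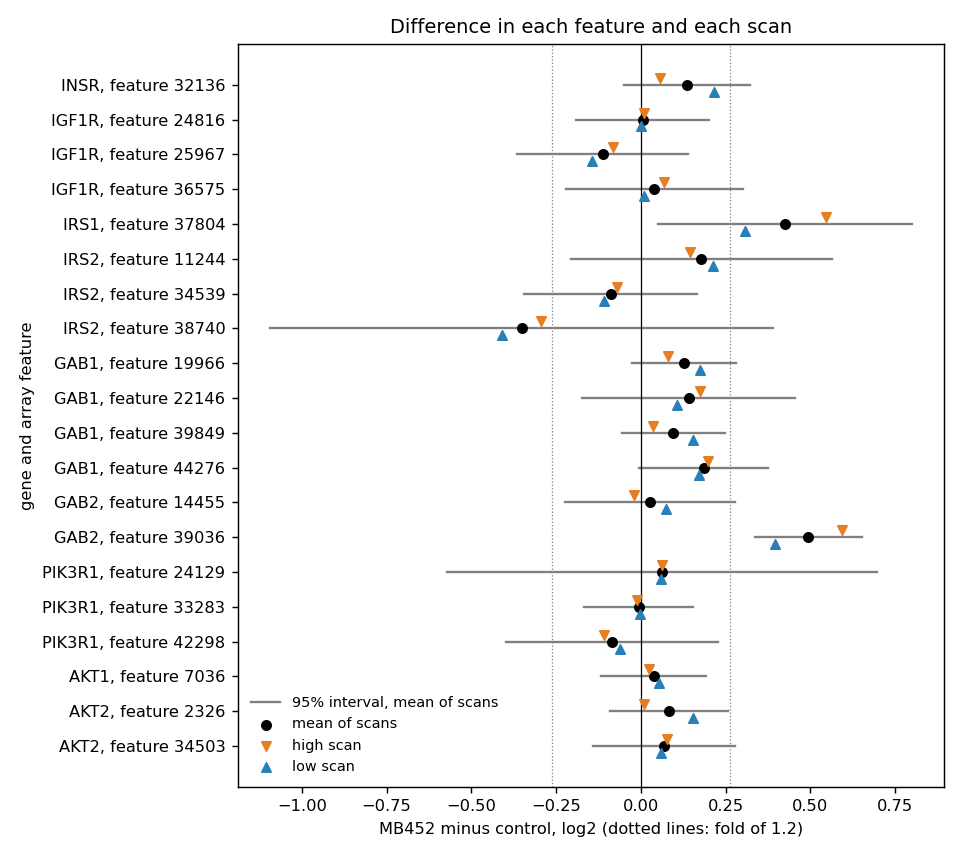
MB452 minus control (log2) at each of the 20 member features, with the high and the low scan as separate points. Most differences lie near 0, those of IRS1 and GAB2 feature 39036 are the highest, and the scans give opposite signs at GAB2 feature 14455.

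Neither PI3K nor AKT members passed. PIK3R1, the regulatory subunit that docks PI3K onto IRS and GAB proteins, had -0.11 and 0.088 in the MB452 pools, a span that held both control pools. The difference was -0.010 (SE 0.082, 95% interval -0.22 to 0.20, limma adjusted p = 0.986). Its feature 24129 was the least repeatable, with -0.30 and 0.35 in the MB452 pools, against 0.17 and -0.24 in the control pools. Its features 33283 and 42298 differed by -0.0069 and -0.084. AKT1 had -0.107 and -0.063 in the MB452 pools, against -0.110 and -0.135 in the control pools, barely apart, with a difference of 0.038 (SE 0.056, 95% interval -0.10 to 0.18, limma adjusted p = 0.890). AKT2, the isoform best known for its part in insulin-stimulated glucose uptake, had 0.069 and -0.041 in the MB452 pools, against -0.012 and -0.11 in the control pools. These overlapped, and the difference was 0.075 (SE 0.070, limma adjusted p = 0.834). Its 2 features gave 0.082 and 0.067. AKT1 minus AKT2 differed by -0.037 between the groups (exact two-sided permutation p = 1).

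Over the 20 features, 2 passed the threshold (IRS1 37804 and GAB2 39036, 10%), against 2.1% of 42142 features tested, 1.3% as higher and 0.8% as lower in the MB452 pools. In the high scan alone 2 of them passed, against 2.99% of all features, and in the low scan alone 1 passed, GAB2 39036, against 2.34%. Their median difference was 0.064, against -0.0051 over all features, and 15 of the 20 were positive, against 47.7%. Both MB452 pools were above both control pools at 8 features and below at 0, against 18.1% and 17.4% of all features (35.6% in either direction), and 2 of the 8 kept that order in each scan. Features of 1 gene share their target and are not independent. Control pool B was the pool farthest from the median of the 4 pools at 10 of the 20 features, against 34.3% of all features. The control pools correlated less with each other (r = 0.403 across features) than the MB452 pools did (r = 0.669). Control pool A correlated more with MB452 pools A (r = 0.613) and B (r = 0.501) than with control pool B. For control pool B the correlations with MB452 pools A and B were 0.453 and 0.381. The part of that pool in the results beyond the values given without it was not tested. IRS1 and GAB2 also stand in pathway lists of genes that the study called from these same samples. Their passing here is therefore not independent evidence. Nor are the shares of members and member features past the threshold, which rest on these genes. The members and the gene lists below were chosen with earlier results of these data known. Their medians, signs and pool orders are therefore not independent evidence either.

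Other genes of the pathway were counted from lists of known members, of which 95 of 106 genes were measured. Of these, 1 passed as higher and 2 as lower in the MB452 pools (3.16%), against 1.91% of all genes. Their median difference was 0.025, and 59 of the 95 were positive, against 45.4% of all genes. None passed among 13 genes of other docking proteins, adaptors and the proteins that they bind (median 0.064, 11 positive, range -0.042 to 0.22). Nor did any among 12 genes of other PI3K subunits and a PI3K inhibitor (median 0.021, range -0.25 to 0.19). The same held for 17 genes of brakes on the receptor, IRS, PIP3 and AKT (median 0.020, range -0.096 to 0.26). It also held for 12 other genes of the AKT, PDK1 and mTOR group, kinases and partner proteins alike (median 0.033, range -0.069 to 0.33). The highest of the brakes had a fold change of 1.199, just under the minimum, as for GAB2. PIK3CB, a catalytic PI3K subunit, differed by 0.18 (SE 0.087) and PDPK1, the kinase that activates AKT, by 0.20 (SE 0.14), and neither passed (limma adjusted p = 0.792 and 0.815). PDPK1 depended on the pools: with 1 pool left out its difference ran from 0.048 (without MB452 pool B) to 0.35 (without MB452 pool A), and it passed without control pool A at 0.33. PIK3R2 was not analysed here.

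FOXO1, a transcription factor that AKT excludes from the nucleus, was the gene that passed among 19 AKT substrates and effectors (5.26%, against 1.91% of all genes). It had log2 ratios of 0.22 and 0.36 in the MB452 pools, against 0.0050 and -0.059 in the control pools. The groups did not overlap, and the difference was 0.32 (SE 0.070), a fold change of 1.246, with a limma adjusted p of 0.637. Of its 2 features, 18509 differed by 0.43 and passed, while 23636 differed by 0.20 and did not. The FOXO1 difference was 0.25 in the low scan and 0.25 without MB452 pool B, and it passed in neither. Among 13 genes known to be activated by FOXO factors, 5 differences were positive and 8 negative, while 45.4% of all genes were positive. TXNIP, which binds and inhibits thioredoxin, was the gene of this list that passed (7.69%). It had 0.052 and -0.22 in the MB452 pools, against 0.32 and 0.22 in the control pools, a difference of -0.36 (SE 0.10, limma adjusted p = 0.696). That difference rested on feature 38713, which gave -0.998, while its other features 16657 and 35557 gave -0.014 and -0.054, and without MB452 pool B the gene was at -0.22 and did not pass. Among 10 ligands and binding proteins 1 gene (10%) passed, IGFBP6, which binds insulin-like growth factors. It had -0.18 and -0.17 in the MB452 pools, against 0.030 and 0.47 in the control pools. The difference was -0.42 (SE 0.15, limma adjusted p = 0.738), with control pool B much the higher of the control pools. Without control pool B the IGFBP6 difference was -0.20, and it did not pass there or without either MB452 pool.

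**Figure D4:**
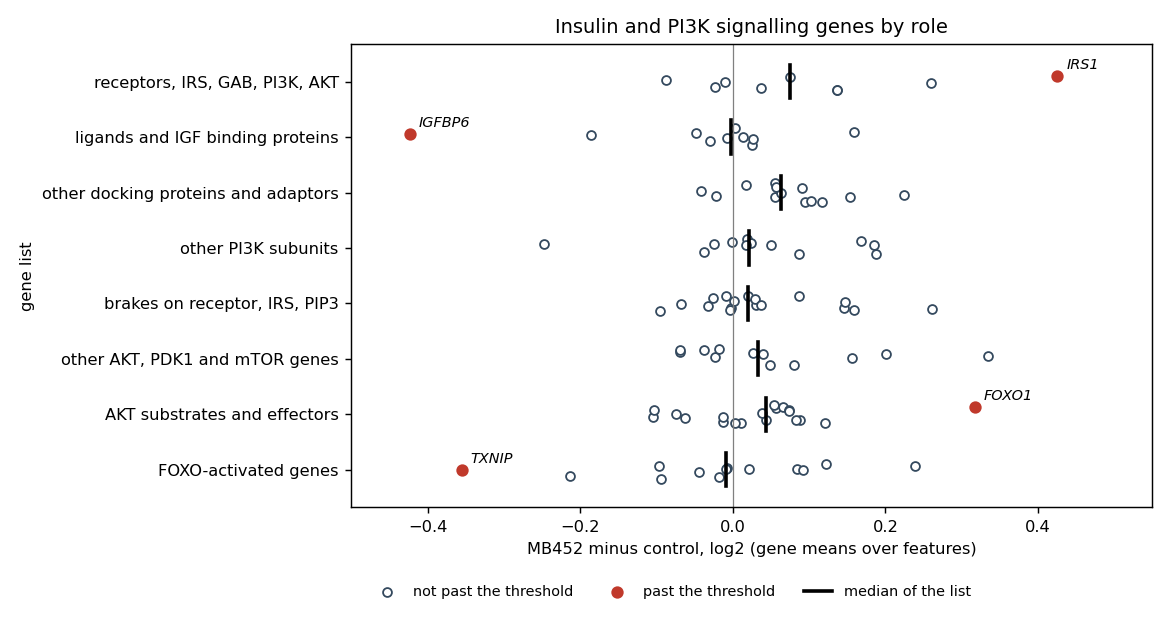
MB452 minus control (log2) for each gene, by role, with filled points for genes past the threshold and a bar at the median of each list. The filled points are IRS1 and FOXO1 on the higher side and IGFBP6 and TXNIP on the lower side, and the other genes lie on both sides of 0.

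The genes whose 8 column values lay nearest to those of IRS1, by root mean square distance over 17938 genes, were GRK5 (0.0491), JAG1 (0.0731) and SUSD6 (0.0784). GRK5 phosphorylates activated G protein-coupled receptors and JAG1 is a ligand of Notch receptors. GRK5 had 0.12 and 0.38 in the MB452 pools, against -0.0073 and -0.36 in the control pools, which is the same order of pools as for IRS1. The genes were picked by these same values, so the shared order is no separate observation.

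Markers were checked for the labelled cell type, with the limit that ratios to a reference made of the same cells show no presence or absence. Of 10 intestinal epithelial markers with a value of their own and 9 markers of blood, stromal and endothelial cells, 0 passed, with medians of -0.024 and -0.091. The other markers on the epithelial list, CDH1 and EPCAM, hold no such value. In every column their features carry the value that this column repeats over many features, as 301 features do. VIL1, IGF2 and SELENOP carry the repeated value of a column at 1 or more places, and 0 of the 20 member features do.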

How the data were processed

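The deposited table holds log2 ratios, Cy5 (sample) over Cy3 (reference), in 8 columns for 4 slides with a high and a low scan each, and 0 columns were left out. The authors read the scans with GenePix, discarded poor spots after inspection, and loess normalized within arrays in limma without subtracting background, leaving out control spots. Limma is also named, without a version, in the submitters' processing notes. For the base of the log nothing was given in the sources used here. It was taken to be 2, as limma writes ratios. The authors' combined scan values and intensities were not used here, so signal over background is unknown, and so is its effect on precision. The small number of arrays also limits the precision that can be stated.

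In limma 3.58.1 under R 4.3.3, columns were centred on their medians, both scans of each slide were averaged to make 1 replicate, and the 42142 features present on every slide were fitted (lmFit, eBayes; MB452 minus control, no covariate). Features were averaged to give the value of a gene. Symbols were updated through the RefSeq table of GRCh38.p14 for 28992 of 29033 features with 1 symbol, while 97 features had several and 15160 had none. Adjusted p-values are Benjamini-Hochberg over all genes or features.

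A value repeated within a column was found at 1563 features in at least 1 column, at 1194 in all high scans and at 301 in all 8 columns. No source used here explains it. These features stayed in the fit, and an alternative left out those repeated in all high scans.

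The members and gene lists were chosen with earlier results of these data known. Named genes are the members, a few genes fixed by name (PIK3CB, PIK3R2, PDPK1 and FOXO1 among them, the others not reported here), up to 4 genes past the threshold in each list, and the 3 genes nearest to the member with the largest difference. CDH1, EPCAM, VIL1, IGF2 and SELENOP are outside this rule: they were named once the repeated values had been seen. Simulated data were used to test the fit. Alternatives covered scans, centring, scaling, missing and repeated values, the variance model, the fold minimum, the choice of feature, a replicate block, and leaving out each pool in turn.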

Additional observations from a re-analysis of the deposited data

How the results depend on the processing

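The count of member genes past the threshold (1) was 2 in the high scan, without centring, with quantile scaling, with no fold minimum and with the most variable feature of a gene, and 0 in the low scan and at a fold over 1.5. Member features (2) were 1 in the low scan and 0 at a fold over 1.5. Pathway genes (3) were 6 in the high scan and with no fold minimum, 0 at a fold over 1.5 and 7 with the most variable feature. All genes (343) were 1166 with no fold minimum, 7 at a fold over 1.5 and 583 with the most variable feature, and all features (883) were 2317 and 22 under these fold settings. With 1 pool left out, the counts ran from 0 to 2 member genes, 1 to 9 pathway genes, 375 to 1685 genes, 1 to 4 member features and 1165 to 4511 features. The highest counts of pathway genes, all genes, member features and all features came without control pool A. A lone pool was assumed to vary like the other group. The IRS1 difference stayed positive in 17 of 17 settings and passed in 13, and its adjusted p ran from 0.0481 (without control pool A) to 0.999. GAB2 passed in 7 of 17 as a gene, and in 14 of 15 at feature 39036.

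The pool letters share only a letter: A minus B in the MB452 pools correlated with A minus B in the control pools at r = -0.0157 over 42142 features. With the letter as a replicate block, 1 member gene, 4 pathway genes, 446 genes, 2 member features and 1061 features passed.

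Signs turned for PIK3R1 (0.022 with quantile scaling, 0.061 with the most variable feature, 0.037 with the median over features) and for GAB2 feature 14455 in the high scan (-0.021). With 1 pool left out, the ranges that crossed 0 were IGF1R -0.070 to 0.024, IRS2 -0.23 to 0.051, PIK3R1 -0.11 to 0.090, IGF1R features 24816 (-0.051 to 0.061), 25967 (-0.23 to 0.0046) and 36575 (-0.092 to 0.17), IRS2 features 34539 (-0.21 to 0.027) and 38740 (-0.80 to 0.093), GAB1 feature 22146 (-0.0026 to 0.29), GAB2 feature 14455 (-0.095 to 0.15), PIK3R1 features 24129 (-0.27 to 0.39), 33283 (-0.035 to 0.021) and 42298 (-0.26 to 0.087), AKT2 feature 34503 (-0.0019 to 0.14) and AKT1 minus AKT2 (-0.11 to 0.040). The cause was not tested.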
